A study of Mus musculus with 15 samples.

Results

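The Bcl2 family genes considered here are Bcl2, Bcl2l1, Mcl1, Bak1, Bax, Bcl2l11, Bid, Bad, Bbc3 and Pmaip1, 10 genes listed by name, and not by any measured value. Expression was read through every exon array probeset that carried the symbol of 1 of these genes and no other symbol. This gave 9 measured genes with 89 probesets, of 16277 genes and 229581 probesets on the array. No probeset used here had Bax as its only symbol, so Bax was not analysed here. The samples were 15 spleens, each with an acute promyelocytic leukaemia (APL), from mice of the Bl/6 Taconic strain, hybridised to Affymetrix Mouse Exon 1.0 ST arrays. All 15 tumours formed 1 group, with no healthy spleen analysed here. The labels used here give no transgene, treatment or age, and they do not say whether each spleen came from its own animal. All comparisons are therefore between tumours, and a p-value here covers only differences among 15 arrays, which can include technical ones.

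Proteins of the Bcl2 family decide whether the outer mitochondrial membrane stays intact. Bcl2, Bcl2l1 (Bcl-xL) and Mcl1 hold back death, Bax and Bak1 form the pore through which cytochrome c leaves, and the BH3-only proteins Bcl2l11 (Bim), Bid, Bad, Bbc3 (Puma) and Pmaip1 (Noxa) release or trigger the pore formers. Neutrophil precursors, the lineage from which APL arises, are known to depend on Mcl1 for their survival.

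All 9 measured members were above the detection limit, a mean log2 intensity of 6.41 that was set at the 40th percentile of all genes and passed by 9766 genes. The value of a gene in a tumour was the median log2 intensity over its probesets, and errors are SDs over 15 tumours unless stated otherwise. The median SD of the 9 members was 0.29, against 0.29 for all detected genes. None of the 9 members had an SD above 0.5, which 1056 of the 9766 detected genes did. Probes of different genes bind with different strength, so levels were compared between tumours for each gene and not between genes. Median deposited (RMA) intensity per array lay between 108 and 129. The arrays of tumor_9509 and tumor_9514 were the dimmest at 108 each, against at least 120 for the other arrays. These 2 arrays correlated with each other at r = 0.96 over the gene values of all 16277 genes, but at no more than 0.95 with any other. Results that rest on them are therefore given with and without them. In whole spleen tissue, fewer cells of a type and less RNA per cell cannot be told apart. Of the markers of the leukaemic lineage, the neutrophil granule genes Camp and Ngp averaged 12.76 ± 0.39 and 12.35 ± 0.48. Of the lymphocyte markers measured, 11 of 13 for T cells and 5 of 10 for B cells were above the detection limit. The highest of each were Lat (8.41 ± 0.54) and Cd79a (8.24 ± 0.60). Set at a percentile, that limit is passed by 9766 of 16277 genes. The counts alone therefore do not show that lymphocyte transcript was present.

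**Figure D1:**
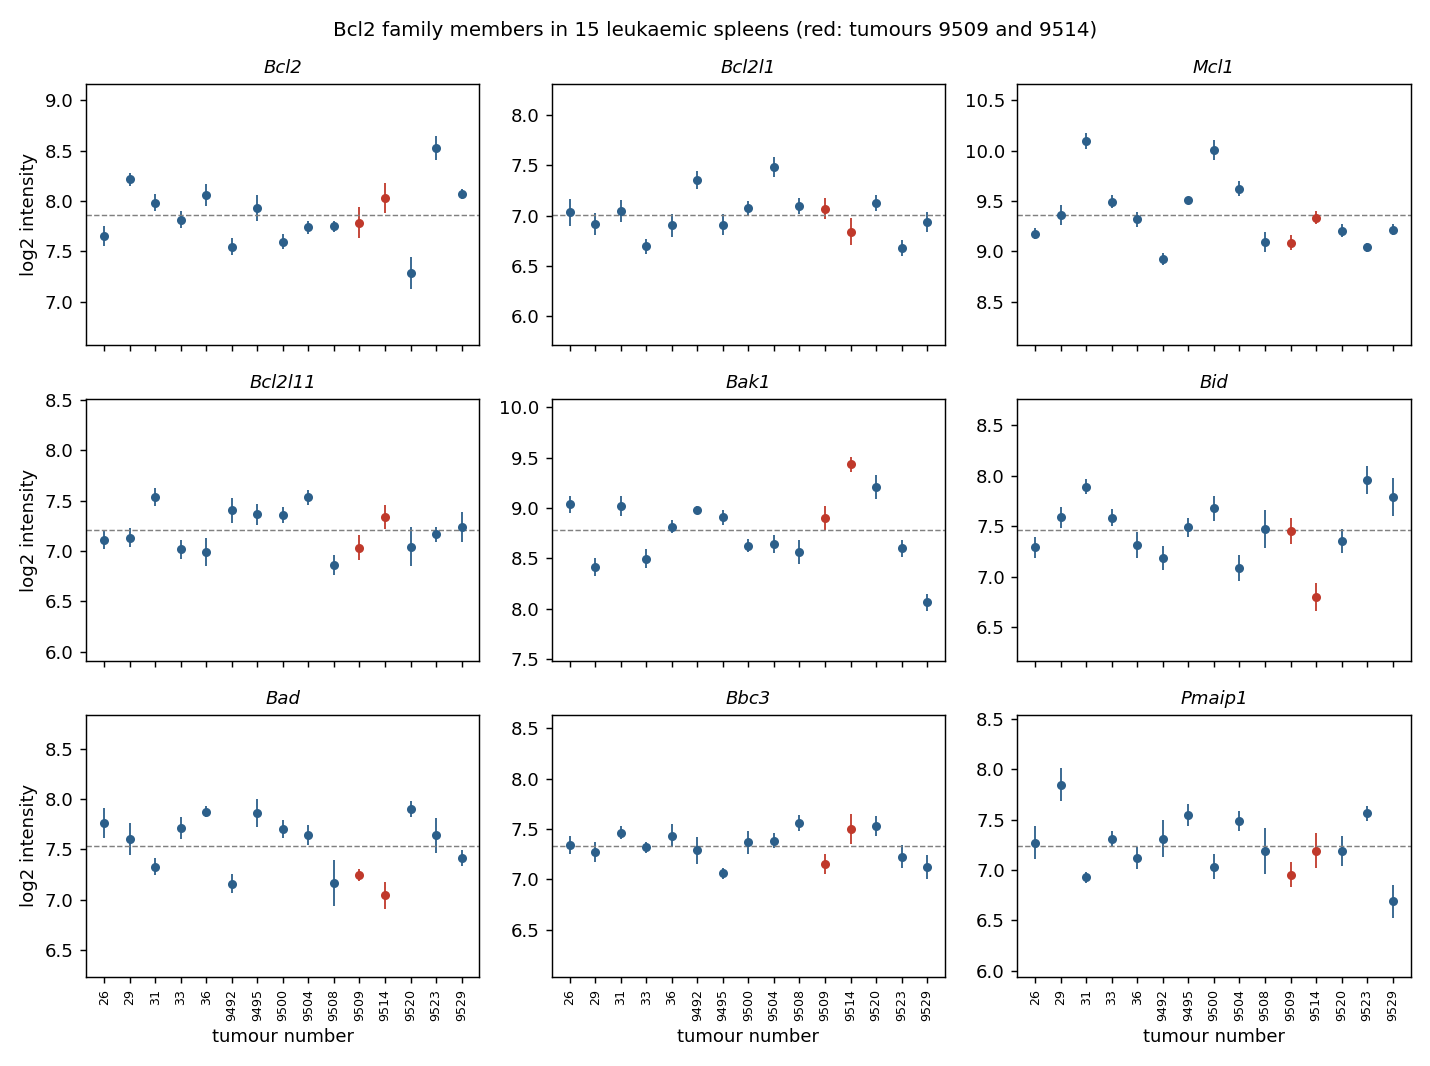
Log2 intensity (y axis) of the 9 measured Bcl2 family members in each of 15 tumours (x axis, tumour number). Points are medians over probesets, bars are standard errors over the probesets of the gene, the dashed line is the mean over tumours, and every panel spans the same range on the y axis; Bak1 runs between 8.06 and 9.43, Mcl1 has 2 high tumours at 10.10 and 10.01, and Bbc3 stays between 7.06 and 7.56.

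Among the survival genes, Mcl1 set 2 tumours apart from the rest. Its level was 8.93 in the lowest tumour (tumor_9492), 9.32 at the median and 10.10 in the highest (tumor_31), with a mean of 9.37 ± 0.34. The second highest was tumor_9500 at 10.01. Next came tumor_9504 at 9.63, which left a gap of 0.38, the widest in the Mcl1 order. The lowest and highest tumours differed 2.25-fold. All 10 Mcl1 probesets were above their own median in tumor_31, and 9 of 10 were in tumor_9500. At the other end, 9 of 10 probesets were below their median in tumor_9492 and 10 of 10 in tumor_9523.

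Bcl2, the founding survival gene of the family, was highest in tumor_9523. Its level was 7.29 in the lowest tumour (tumor_9520), 7.82 at the median and 8.53 in tumor_9523, with a mean of 7.87 ± 0.30, and the extremes differed 2.36-fold. In tumor_9523, 9 of the 10 Bcl2 probesets were above their own median and 6 were at their highest of all tumours. In tumor_9520, 8 of 10 were below it. Bcl2l1, which encodes Bcl-xL, was lowest in that same tumor_9523, at 6.68. Its median was 7.03 and its highest level 7.48, in tumor_9504, with a mean of 7.01 ± 0.21. In tumor_9504, 13 of the 15 Bcl2l1 probesets were above their own median, and in tumor_9523 11 of 15 were below it.

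Bak1, which encodes the pore former of the pair that could be measured, had the widest range of the 9 members. Its level was 8.06 in the lowest tumour (tumor_9529), 8.81 at the median and 9.43 in the highest (tumor_9514), with a mean of 8.78 ± 0.34 and a 2.58-fold difference between the extremes. The next tumours in the order were tumor_29 at 8.41 and tumor_9520 at 9.21. All 8 Bak1 probesets were below their own median in tumor_9529, where 6 were at their lowest of all tumours. All 8 were above their median in tumor_9514, where 5 were at their highest. Tumor_9514 is one of the 2 dim arrays, and the other, tumor_9509, had 8.90.

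Mcl1 and Bak1 are the members that other genes followed past the adjusted threshold when a gene was the median of its probesets. Their promoters are therefore shown, from RefSeq on GRCm38.p6, with 250 bases before and 50 after the annotated start. Capitals mark the matches to the motifs searched on both strands, which were GGGCGG (the GC box), CCAAT (the CCAAT box), TATAAA (the TATA box), CACGTG (the E-box of Myc), GAGGAAG (a core bound by PU.1) and TTCNNNGAA (the core bound by Stat factors). With 1 match in each promoter, no matches overlapped.
Mcl1, GRCm38.p6 chr3:95658471-95658770, plus strand: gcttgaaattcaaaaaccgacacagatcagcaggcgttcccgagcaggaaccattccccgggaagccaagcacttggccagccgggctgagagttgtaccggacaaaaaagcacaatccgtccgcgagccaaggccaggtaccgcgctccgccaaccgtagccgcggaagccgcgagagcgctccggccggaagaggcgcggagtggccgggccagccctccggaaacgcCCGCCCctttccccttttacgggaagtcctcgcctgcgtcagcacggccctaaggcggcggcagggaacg
Bak1, GRCm38.p6 chr17:27028578-27028877, minus strand: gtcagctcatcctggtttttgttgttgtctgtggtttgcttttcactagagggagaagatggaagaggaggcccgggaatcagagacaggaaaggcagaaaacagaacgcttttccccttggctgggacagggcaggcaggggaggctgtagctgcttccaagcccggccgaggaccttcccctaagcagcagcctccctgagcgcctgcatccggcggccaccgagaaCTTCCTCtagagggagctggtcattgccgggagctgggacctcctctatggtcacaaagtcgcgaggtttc
In the Mcl1 promoter the only match was 1 GGGCGG, which 35.7% of 32851 promoters hold. In the Bak1 promoter it was 1 GAGGAAG, which 13.6% of promoters hold. A match is a description of these letters and not a measured site.

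None of the BH3-only genes ranged as widely as Bak1, and each had its own order of tumours. Bid, whose protein is cut by caspase 8 to reach the mitochondrion, was lowest in the dim array tumor_9514 at 6.79. Its median was 7.47 and its highest level 7.96, in tumor_9523, with a mean of 7.46 ± 0.31. Bid was below its own median in 7 of 9 probesets in tumor_9514. Bad, whose protein binds Bcl2 and Bcl-xL when growth factor signals are withdrawn, was also lowest in tumor_9514, at 7.05. Its median was 7.64 and its highest level 7.90, in tumor_9520, with a mean of 7.54 ± 0.29. The dim array tumor_9509 had 7.25, with only tumor_9492 (7.16) and tumor_9508 (7.17) between them.

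Pmaip1, a p53 target whose protein binds Mcl1, was lowest in tumor_9529 at 6.69. Its median was 7.19 and its highest level 7.85, in tumor_29, with a mean of 7.24 ± 0.29. Bcl2l11, which encodes Bim, the BH3-only protein that binds all survival members, ran between 6.86 in tumor_9508 and 7.54 in tumor_31, with a median of 7.16 and a mean of 7.21 ± 0.21. Bbc3, another p53 target, had the narrowest spread, from 7.06 in tumor_9495 to 7.56 in tumor_9508, with a median of 7.34 and a mean of 7.33 ± 0.15. Only 6.40% of detected genes had a smaller SD than Bbc3. The share was 64.0% for Bak1, 62.0% for Mcl1, 54.6% for Bid and 52.4% for Bcl2. It was 49.3% for Pmaip1, 47.9% for Bad, 24.5% for Bcl2l1 and 22.2% for Bcl2l11.

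No tumour was at the extreme for most members. Tumor_31 was highest for Mcl1 and Bcl2l11, and tumor_9523 was highest for Bcl2 and Bid. Tumor_9514 was highest for Bak1 and lowest for Bid and Bad, and tumor_9529 was lowest for Bak1 and Pmaip1. Tumor_9509 was at neither end for any member. With 1 array per tumour, the spread that can be set beside a difference between tumours is that of the probesets. Going up the order of the 15 tumours, the 14 gaps between neighbours were larger than the combined standard error over probesets in 5 cases for Mcl1, 4 for Bak1, 3 for Bcl2 and 2 for Pmaip1. Bcl2l1, Bid and Bad each had 1 such gap, and Bcl2l11 and Bbc3 had 0. Most neighbouring tumours therefore did not differ beyond the spread of the probesets. The probesets of a gene are not replicates of a tumour, so these counts are a description and not a test.

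How well the probesets of a gene ranked the tumours alike set how far its differences can be read. For Bak1, 7 of 8 probesets correlated at r above 0.5 with the median of the others. The exception, probeset 5242055, had r = 0.14. With the Bak1 probesets sorted by number, the mean of every other probeset correlated at 0.96 with the mean of the remaining ones. Such a correlation is here called the split r. Mcl1 had 6 of 10 probesets with r above 0.5 and a split r of 0.76, which was 0.90 over its 8 probesets above the detection limit. Bcl2 had 6 of 10 and a split r of 0.69. Its probesets 4834952 and 5010010 followed each other at r = 0.94. The split r was 0.79 for Bcl2l11 and 0.47 for Bcl2l1, or 0.72 over the 10 Bcl2l1 probesets above the limit. Only 4 of 15 Bcl2l11 and 2 of 15 Bcl2l1 probesets had r above 0.5, and 2 of each gene had r below 0.

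The remaining BH3-only genes likewise had probesets that ranked the tumours differently from each other. Bid had 3 of 9 probesets with r above 0.5 and a split r of 0.51, or 0.46 over its 8 probesets above the limit. Bid probeset 5591964 ran against the others at r = -0.71, with its highest value, 8.05, in tumor_9514, where the gene value was lowest. Bad had a split r of 0.10, or 0.45 over its 5 probesets above the limit. Within Bad, probesets 4982096 and 5525339 followed each other at 0.84. Pmaip1 had a split r of 0.43 and Bbc3 0.48, and neither had a probeset with r above 0.5. Over the 6 probesets of each above the limit, the split r was lower, at 0.32 for Pmaip1 and 0.23 for Bbc3. Within Bbc3, probesets 4896784 and 5587199 followed each other at 0.80, and of its 36 probeset pairs 4 had r above 0.5 and 15 below 0. Bbc3 probeset 4989680 had an SD of 0.46, so the narrow spread of Bbc3 is that of the median and not of every probeset. Bcl2l11 probeset 4366918 varied most of all member probesets, with an SD of 1.07 and values from 4.57 (tumor_9520) to 8.43 (tumor_9529), while Bcl2l11 as a whole moved by 0.68.

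**Figure D2:**
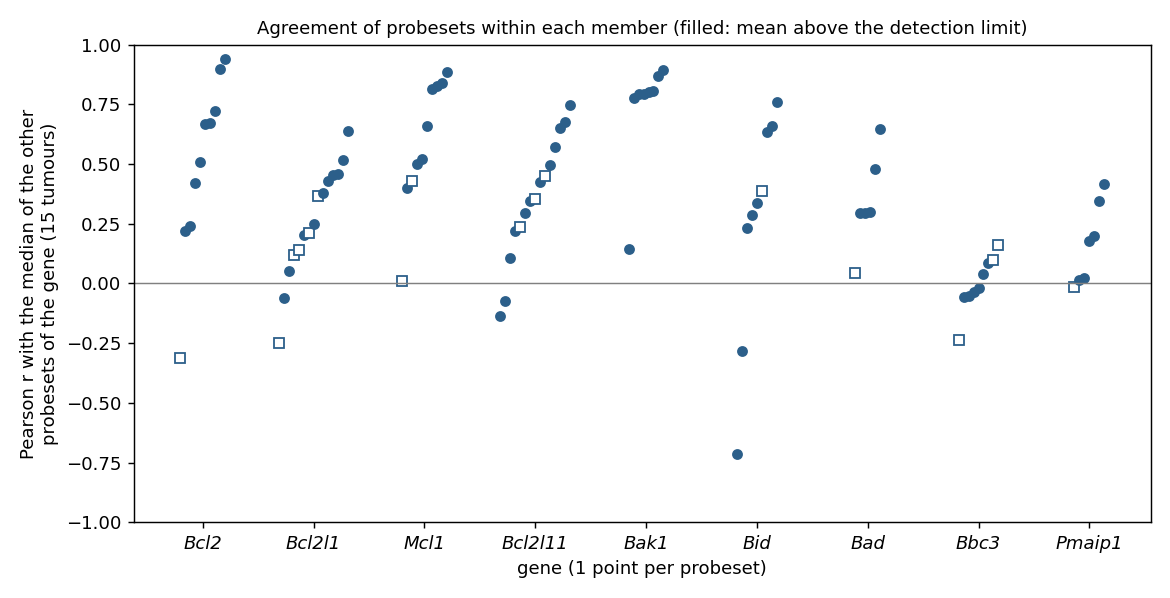
Pearson r over 15 tumours (y axis) of each probeset with the median of the other probesets of its gene, 1 point per probeset, for the 9 measured members (x axis). Filled points are probesets with a mean above the detection limit and open squares those below it; 7 of 8 Bak1 probesets lie above 0.5, while 0 of 9 Bbc3 and 0 of 7 Pmaip1 probesets do.

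No pair of survival and death genes was called as moving together over the 15 tumours. Each of the 9 members was taken in turn as a continuous covariate in a limma fit of all 9765 other detected genes, with Benjamini-Hochberg adjustment over those genes. A pair of members was called when each passed an adjusted p of 0.05 with the other as covariate. Of 36 pairs, 0 were called, and the lowest adjusted p was 0.182. Over all genes, 0.573% were called with Bak1 as covariate (56 genes), 0.041% with Mcl1 (4 genes) and 0% with each of the other 7 members. At an unadjusted limma p under 0.05, 2 pairs passed with both covariates and 3 with either. The share of all genes at that unadjusted threshold was 4.63% for Bcl2, 2.89% for Bcl2l1, 7.14% for Mcl1, 5.03% for Bcl2l11 and 18.3% for Bak1. It was 18.8% for Bid, 11.7% for Bad, 3.88% for Bbc3 and 1.85% for Pmaip1, so the few pairs are not a result about the members. Pearson's r was above 0 in 16 pairs and below 0 in 20, with a median of -0.02 and a range of -0.63 to 0.55. Permutation tests (two-sided, 100000 resamples, unadjusted) gave p under 0.05 in 3 pairs by r and in 2 by Spearman's rho.

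Bcl2 and Bcl2l1, both survival genes, had the most negative r of the 36 pairs. It was -0.63 (permutation p = 0.0117) and rho was -0.77 (permutation p = 0.00126) over 15 tumours. The limma adjusted p was 0.981 with Bcl2 as covariate and 1.00 with Bcl2l1. Tumor_9523, with the highest Bcl2 and the lowest Bcl2l1, and tumor_9504 and tumor_9492, with the 2 highest Bcl2l1 levels and Bcl2 at 7.74 and 7.55, lay at the ends. Without tumor_9520 and tumor_9523, the tumours farthest from the median of Bcl2, r was -0.56. Within the 10 tumours whose number has 4 digits r was -0.71, and without the 2 dim arrays it was -0.62. Leaving out 1 tumour at a time gave r between -0.71 and -0.52.

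Bak1 and Bid, a pore former and a BH3-only protein known to trigger it, had r = -0.58 (permutation p = 0.0215) and rho = -0.56 (permutation p = 0.0311). The limma adjusted p was 0.182 with Bak1 as covariate and 0.196 with Bid. Tumor_9514 had the highest Bak1 and the lowest Bid, and tumor_9529 the lowest Bak1. Without these 2 tumours r was -0.27, over a narrower range of Bak1. Leaving out 1 tumour at a time gave r between -0.73 and -0.40. The r was -0.71 within the 10 tumours with 4-digit numbers and -0.39 without the 2 dim arrays.

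Mcl1 and Bcl2l11, a survival protein gene and the gene of its BH3-only partner Bim, had r = 0.55 (permutation p = 0.0336) and rho = 0.44 (permutation p = 0.106). Without tumor_31 and tumor_9500, the 2 tumours high in Mcl1, r was 0.32, over a narrower range of Mcl1. Leaving out 1 tumour at a time gave r between 0.40 and 0.72. The r of Mcl1 with Bcl2l11 was 0.19 (permutation p = 0.491) with the mean over probesets in place of the median. The limma adjusted p was 0.702 with Mcl1 as covariate and 0.925 with Bcl2l11. Mcl1 and Pmaip1, the other BH3-only gene tied to Mcl1, had r = -0.14. Bcl2 and Mcl1 had r = -0.03, and Bcl2l1 and Mcl1 had 0.05. The remaining pairs lay between -0.40 and 0.41 over 15 tumours. Without the 2 dim arrays, r of Bcl2l1 with Bid went from -0.40 to -0.67, more negative than Bcl2 with Bcl2l1 (-0.62). That of Bcl2 with Bid went from 0.40 to 0.62, and that of Bcl2 with Bak1 from -0.36 to -0.52. Without these arrays 0 of the 36 pairs were called.

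**Figure D3:**
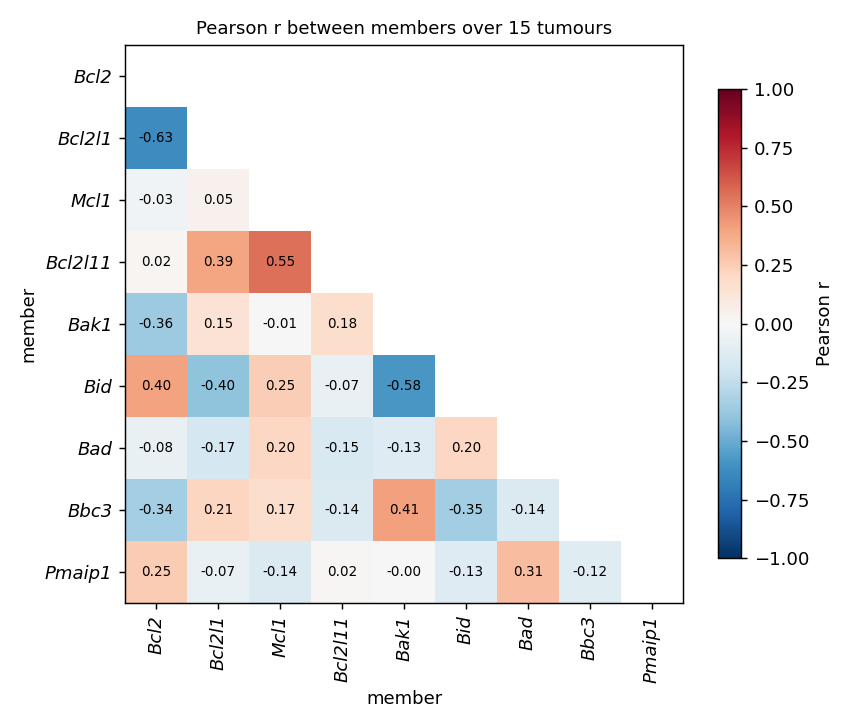
Pearson r over 15 tumours (colour and printed value) for each of the 36 pairs of measured members, named on both axes. The strongest negative pairs are Bcl2 with Bcl2l1 (-0.63) and Bak1 with Bid (-0.58), and the strongest positive pair is Mcl1 with Bcl2l11 (0.55).

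With Mcl1 as covariate, the 4 genes called were Pira2, Klf3, Cd300ld and Mapk13, all higher where Mcl1 was higher. Pira2 (paired immunoglobulin-like receptor A2) and Cd300ld are myeloid cell surface receptors, Klf3 is a zinc finger transcription factor, and Mapk13 is the p38 delta kinase. All 4 were also among the 39 genes called without the 2 dim arrays. Klf3 was nearest to Mcl1 in the ranking of genes with at least 3 probesets by r, at 0.87 (limma adjusted p = 0.0304), followed by Mapk13 at 0.86 (limma adjusted p = 0.0307). Next was Ddx58 (RIG-I, a sensor of viral RNA), at 0.85 (limma adjusted p = 0.0532). Without tumor_31 and tumor_9500, r with Mcl1 was 0.81 for Klf3, 0.56 for Mapk13 and 0.50 for Ddx58. The count of 4 was 0 when tumor_31, tumor_9500 or tumor_9508 was left out, 1 without tumor_9504 and 2 without tumor_36. It was 7 without tumor_9523 or tumor_33, 14 without tumor_9514, 16 without tumor_9529 and 27 without tumor_9509.

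With Bak1 as covariate, 14 of the 56 called genes were higher and 42 were lower where Bak1 was higher. Nearest to Bak1 were Atf5, a stress-responsive transcription factor, at r = 0.88 (limma adjusted p = 0.0362), Leprotl1 at 0.87 (limma adjusted p = 0.0316) and Sgpp1, a sphingosine-1-phosphate phosphatase, at 0.87 (limma adjusted p = 0.0414). Without tumor_9514 and tumor_9529, the extremes for Bak1, r was 0.72 for Atf5, 0.70 for Leprotl1 and 0.76 for Sgpp1. Only 2 genes were called without the 2 dim arrays, and 0 of them were among the 56. The count fell to 0 when tumor_9514, tumor_9529 or tumor_29 alone was left out, and it was 213 without tumor_9520, 118 without tumor_9509 and 98 without tumor_9504. It was 33 without tumor_33, 21 without tumor_9492 or tumor_36, 18 without tumor_9495, 12 without tumor_9500 and 7 without tumor_9523.

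With the other 7 members as covariate, 0 genes passed the adjusted threshold. This count depended on how probesets were combined. With the mean over probesets it was 367 for Bid and 20 for Bad, and with probesets above the 25th percentile it was 322 for Bbc3. Leaving out 1 tumour gave 23 genes for Bid (without tumor_9492) and 19 for Bad (without tumor_9508). At an unadjusted limma p under 0.05 the counts ran from 181 of 9765 genes for Pmaip1 (1.85%) and 282 for Bcl2l1 (2.89%) to 1145 for Bad (11.7%) and 1832 for Bid (18.8%). The nearest gene by r was Ing3, a chromatin reader subunit, for Bcl2 (0.85). It was Oplah, an enzyme of the glutathione cycle, for Bcl2l1 (0.87), with Polrmt and Ela2 next at 0.74 each. Ela2 is a symbol that the gene table lists as an older name of both Elane and Cela2a. For Bcl2l11 the nearest were Pnrc2, a factor of mRNA decay, at 0.85 and the NF-kappaB inhibitor gene Nfkbia at 0.83. Nearest to Bid was Ccdc116 (0.85, limma adjusted p = 0.105), to Bbc3 Mllt11 (0.83) and to Pmaip1 Bicd2, an adaptor of the dynein motor (0.82). Nearest to Bad was Bnip3, itself a mitochondrial BH3-domain gene, at 0.82 (limma adjusted p = 0.205), followed by the glycolytic enzyme gene Pgam1 at 0.81. These genes were picked for their high r, so the r values describe the 15 tumours and test nothing.

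Members were next set against 7 scores of cell content, maturation and growth, each the mean deviation of the detected genes of a list from their 15-tumour mean. Of 63 relations, 0 were called by limma over all genes. The share of all genes called was 0.585% for neutrophil maturation, 0.0102% for B cells, 0.0103% for T cells, 0% for erythroid cells, 22.7% for G2 and mitosis, 18.8% for Myc and ribosome biogenesis, and 0% for p53 targets. At an unadjusted limma p under 0.05 there were 8 relations, 0 for neutrophil maturation, 1 for B cells, 2 for T cells, 2 for erythroid cells, 1 for G2 and mitosis, 2 for Myc and 0 for p53 targets. All genes passed that threshold in 10.9%, 5.48%, 5.25%, 8.31%, 36.4%, 33.4% and 5.84% of cases in the same order of scores.

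Mcl1 had the largest r with a marker score, that of T cells. The T cell score (11 of 14 listed genes detected, led by Lat and Cd2, with Cd4 and Trat1 below the limit) had its highest summed level in tumor_31, a mean of 7.73 over its genes, and its lowest in tumor_9523, 6.76. Its r with Mcl1 was 0.71 (permutation p = 0.0032), rho was 0.67 (permutation p = 0.0082) and the limma adjusted p was 0.591. The r was 0.47 without tumor_31 and tumor_9523, 0.79 without the 2 dim arrays and 0.59 within the 10 tumours with 4-digit numbers. Bcl2l11 had r = 0.59 with the same score (permutation p = 0.0196, limma adjusted p = 0.881). Mcl1 had r = 0.55 with the B cell score (5 of 12 listed genes detected, led by Cd79a and Cd79b; permutation p = 0.0322, limma adjusted p = 0.887). That score ran from a mean of 6.73 in tumor_9492 to 7.84 in tumor_9509, and the B cell genes Ms4a1, Cr2, Fcer2a, Cd22 and Ebf1 were below the limit. The r of Mcl1 with it was 0.76 without the 2 dim arrays and 0.70 without tumor_9492 and tumor_9509. Bcl2l11 had r = 0.40 with the B cell score over 15 tumours and 0.58 without the 2 dim arrays. It was 0.83 without tumor_9492 and tumor_9509, and 0.12 within the 10 tumours with 4-digit numbers. Whether lymphocyte content has a part in the spread of Mcl1 and Bcl2l11 was not tested.

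**Figure D4:**
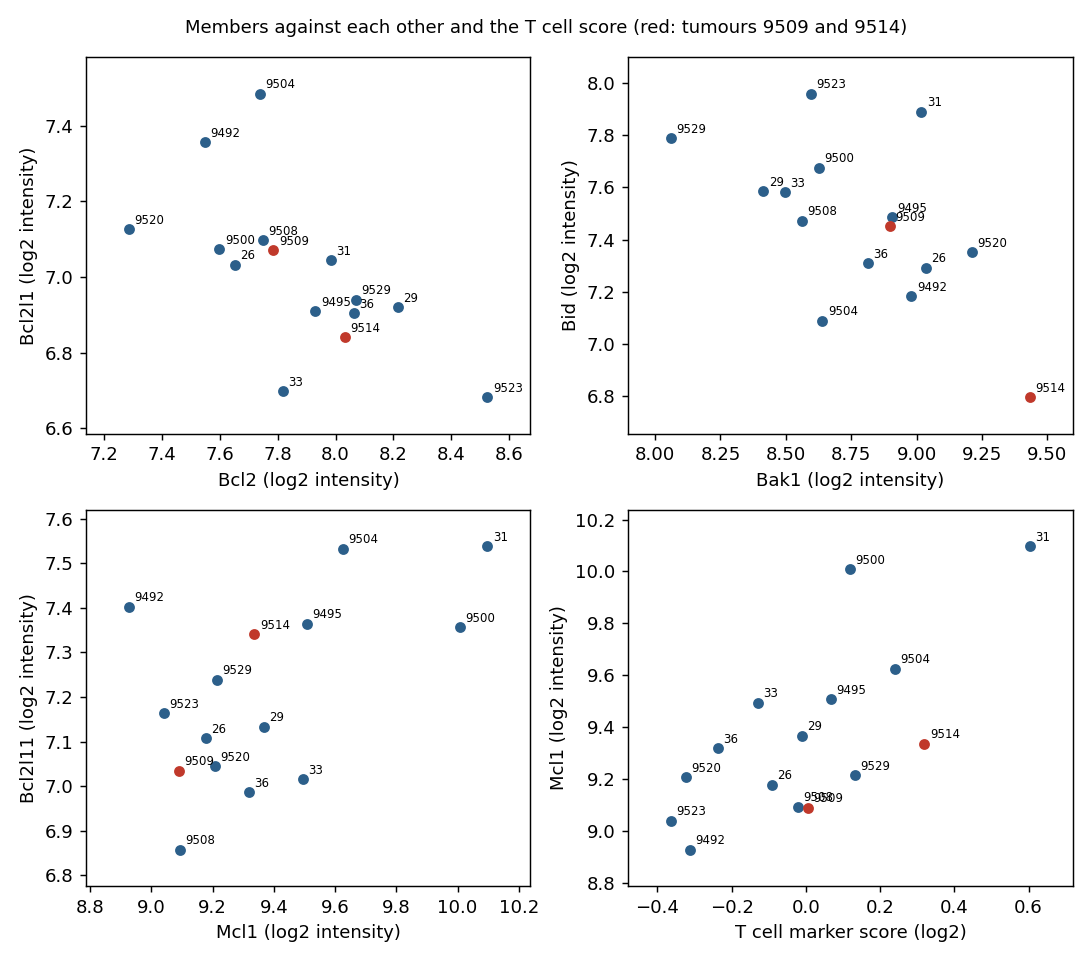
The 3 pairs of members with a permutation p under 0.05, and Mcl1 against the T cell score, in 15 tumours (points, with tumour numbers; tumor_9509 and tumor_9514 in red). Members are in log2 intensity and the score is a mean log2 deviation; r is -0.63 for Bcl2 and Bcl2l1, -0.58 for Bak1 and Bid, 0.55 for Mcl1 and Bcl2l11, and 0.71 for Mcl1 and the T cell score.

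The erythroid score gave negative r with Bad and Mcl1. The erythroid score (7 of 14 listed genes detected, led by Hbb-b1 and Tfrc, with Epb42, Klf1 and Gata1 below the limit) ranged from a mean of 7.04 in tumor_9500 to 8.08 in tumor_9492. Bad had r = -0.65 with it (permutation p = 0.0086, limma adjusted p = 0.452) and -0.63 without tumor_9492 and tumor_9500. Mcl1 had r = -0.59 (permutation p = 0.0217, limma adjusted p = 0.505) and -0.26 without those 2 tumours. The part of erythroid cells in these values was not tested.

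Bak1 and Bid had r of opposite sign with the Myc and ribosome biogenesis score (14 of 16 listed genes detected, led by Npm1 and Ncl), which was lowest in tumor_9514 at a mean of 7.94 and highest in tumor_9523 at 9.03. Bak1 had r = -0.61 (permutation p = 0.0173, limma adjusted p = 0.0553) and Bid 0.60 (permutation p = 0.0179, limma adjusted p = 0.063). Without the 2 dim arrays, also the 2 most distant from the median score, r was -0.40 for Bak1 and 0.39 for Bid. Without tumor_9514 alone, the r of Bid with the Myc and ribosome biogenesis score was 0.35. Bak1 was called with this score when tumor_36, tumor_26 or tumor_9520 was left out, and Bid when tumor_31 was, which gave a count of 1 member each time. With the G2 and mitosis score (14 of 16 listed genes detected, led by Mki67 and Birc5), Bid had r = 0.49 and Bak1 -0.43, against 0.17 and -0.05 without the 2 dim arrays. Bid was the 1 member called with it when tumor_9492 was left out.

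Neither Bbc3 nor Pmaip1, both p53 targets, was called with the score of other p53 targets, and 0% of all genes were. That score ran only from a mean of 7.60 in tumor_9492 to 8.06 in tumor_33. Its genes did not all move together, since tumor_9529 had the lowest Cdkn1a (6.81) and the highest Mdm2 (9.43). Over 15 detected p53 targets of 19 listed, led by Ccng1 and Ei24, r with the score was 0.15 for Bbc3 and -0.05 for Pmaip1, and it lay between -0.42 (Bak1) and 0.50 (Bad) for the members as a whole. With neutrophil maturation (15 of 16 listed genes detected, led by Camp and Ngp), r was between -0.34 (Pmaip1) and 0.48 (Mcl1), although this score ranged most, from a mean of 8.53 in tumor_9508 to 11.35 in tumor_31. No member was called by the numbering of the tumours. The difference of the 10 tumours with 4-digit numbers minus the 5 with 2-digit numbers lay between -0.19 for Mcl1 and 0.14 for Bcl2l1, with limma adjusted p = 1.00 for each, and 0% of all genes were called. At an unadjusted limma p under 0.05, 2.31% of all genes passed and 0 members did. The labels do not say what the numbering stands for.

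The other genes of the pathway were read from 3 lists. Of 18 further Bcl2 family genes, 14 were measured and 9 were detected, with a median level of 7.78 and a median SD of 0.22, below the 0.29 of all detected genes. Bnip2 (10.31 ± 0.22), Bnip3 (8.31 ± 0.38) and Bnip3l (7.78 ± 0.28), which encode proteins first known for binding Bcl2 or its viral relative, were those with the highest means or the largest SDs. The survival gene Bcl2l2 (6.09 ± 0.34) and the Bcl2a1 copy Bcl2a1c (3.78 ± 0.39) were below the detection limit. The remaining Bcl2a1 copies, Bcl2a1a, Bcl2a1b and Bcl2a1d, were not analysed here, and the value of Bcl2a1c does not stand for them. Of the 9 detected genes, 0 were called with any member or score. Of all genes, 22.7% were called with the G2 and mitosis score and 18.8% with the Myc score, and at most 0.585% with any other score or any member.

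Of 20 genes of caspases and mitochondrial release, 16 were measured and 15 detected, with a median level of 7.996 and a median SD of 0.36. The largest spreads were in Endog, a nuclease released from mitochondria (7.60 ± 0.57), and in Vdac1, a channel of the outer membrane (9.59 ± 0.53). Vdac2, the channel that binds Bak1 (10.07 ± 0.44), and Vdac3 (9.66 ± 0.25) had the highest means. With the G2 and mitosis score, 7 of 15 were called, all rising with it: Aifm1, Casp2, Casp8, Dffb, Htra2, Vdac1 and Vdac2. With the Myc score, 5 of 15 were called, 4 rising and the caspase inhibitor gene Xiap falling. Among all genes 22.7% and 18.8% were called with these scores. Without the 2 dim arrays 0 of the 15 were called with either, where 0% and 0.0205% of all genes were.

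Of 14 regulators of the family, 13 were measured and detected. Myc (10.82 ± 0.69) had the highest mean and the largest SD. Stat3 (8.56 ± 0.53) and Huwe1, a ubiquitin ligase of Mcl1 (8.56 ± 0.26), came next by SD and by mean. With the G2 and mitosis score, 6 of 13 were called, all rising: Huwe1, Myc, Nfkb1, Stat3, Stat5b and Usp9x, which encodes a deubiquitinase of Mcl1. The Myc score called 4 of 13. The shares of all genes were 22.7% and 18.8%. Without the 2 dim arrays neither score called any of the 13, beside 0% and 0.0205% of all genes. With each of the 9 members as covariate, 0 of the 37 detected genes in the 3 lists were called.

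Bak1 was the 1 member called with the other genes of its chromosome. Each member was compared with the median deviation of all other detected genes on its chromosome, taken from the GRCm38.p6 gene table. Bak1 lies on chromosome 17, where the median deviation of 527 genes ran from -0.12 in tumor_9529 to 0.08 in tumor_9514, the tumours with the lowest and highest Bak1. The r was 0.83 (permutation p = 1.3e-04, adjusted p = 0.0182 over 9741 genes) and rho 0.74 (permutation p = 0.00254). Of all genes, 4.12% passed the adjusted threshold in the same step, so that 1 of 9 members passed where 401 of 9741 genes did, and r exceeded that of 99.1% of genes. The r of Bak1 was 0.67 without tumor_29 and tumor_9529, 0.78 without the 2 dim arrays and 0.80 within the 10 tumours with 4-digit numbers. It was also 0.84 with chromosome 7, so chromosome 17 ranked second of 20 for Bak1. With the 20 detected genes nearest to Bak1, a window chosen after seeing the data, r was 0.73.

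Bad was nearest to passing of the other members. On chromosome 19 (371 genes) the median deviation ran from -0.27 in tumor_9492 to 0.14 in tumor_26, and r with Bad was 0.73 (permutation p = 0.00311, adjusted p = 0.0605) with rho = 0.76 (permutation p = 0.00159). Its own chromosome ranked first of 20 for Bad. Without tumor_9492 and tumor_9523 r was 0.80, and without the 2 dim arrays 0.62. With the 20 nearest detected genes r was 0.13 (permutation p = 0.641). Bid and chromosome 6 had r = 0.40 (permutation p = 0.146) over 15 tumours and 0.81 without the 2 dim arrays. Tumor_9514 had Bid at its lowest while chromosome 6 was high there, and without that tumour alone r was 0.70. Bcl2 and chromosome 1 had r = 0.43 (permutation p = 0.115) and rho = 0.65 (permutation p = 0.0111, adjusted p of r = 0.358), and r was 0.64 without tumor_9523. For Bcl2l1, Mcl1, Bcl2l11, Bbc3 and Pmaip1 r lay between 0.11 and 0.36, with 0.56 for Bbc3 when tumor_9509 was left out. At an unadjusted permutation p under 0.05, 2 of 9 members passed by r, as did 21.2% of all genes. All 9 members had an r above 0, as did 70.8% of all genes. DNA copy number was not measured, so whether it has a part in these values was not tested.

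**Figure D5:**
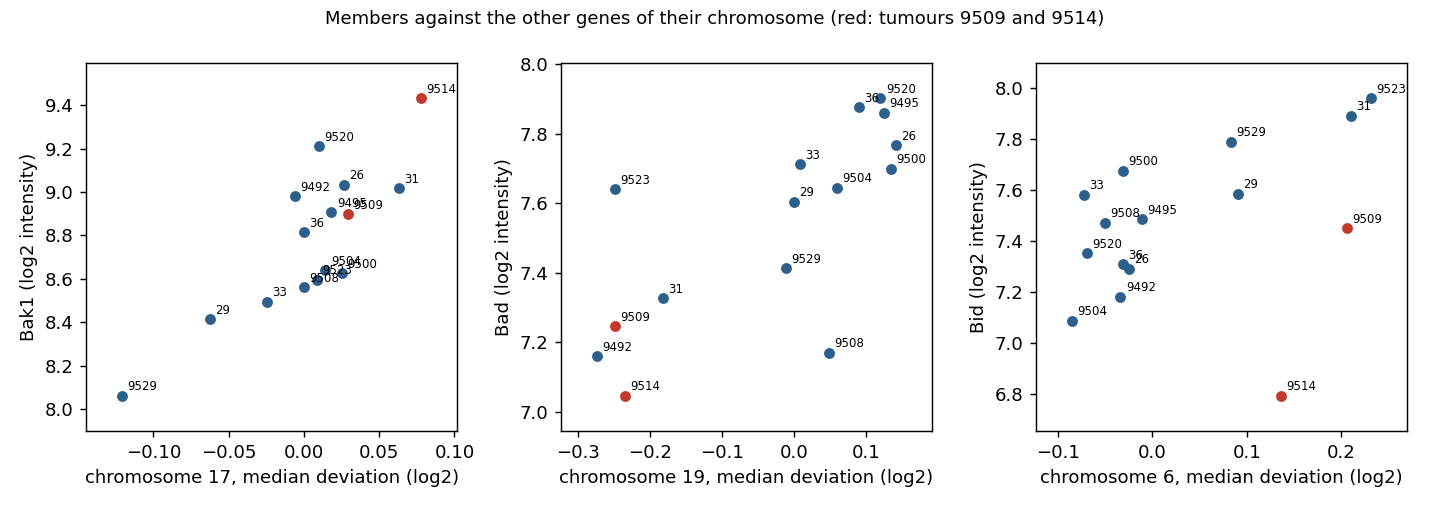
Log2 intensity of Bak1, Bad and Bid (y axes) against the median log2 deviation of the other detected genes of their chromosome (x axes), 1 point per tumour with its number, tumor_9509 and tumor_9514 in red. The r is 0.83 for Bak1 with chromosome 17 and 0.73 for Bad with chromosome 19, while tumor_9514 lies far below the other tumours for Bid and chromosome 6 (r = 0.40, and 0.81 without the 2 red points).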

How the data were processed

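Intensities from 15 arrays, 1 per leukaemic spleen, were read from the table the authors deposited, with 1 value per probeset on a linear intensity scale. The submitters' processing notes name RMA, which corrects background, normalizes arrays and summarises probes, and build mm9, each without a version. Values ran from 2.38 to 19380.5, which showed a linear scale without centring. Scanner files and scan dates were not analysed here. The number of arrays limits the precision.

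Values were log2 transformed here. The platform annotation gave 208397 of 229581 probesets 1 gene symbol, 3965 several and 17219 none. Of 16299 symbols, 14132 were current in the RefSeq table (GRCm38.p6), 2124 were renamed and 43 kept as listed; names and chromosomes came from that table and coordinates only for promoters. The members and lists were chosen with earlier results of these data known. Genes named were all members, for each member the 3 detected genes highest in r, given at least 3 probesets (for some members only the first are printed), called list genes, and the 2 list genes with the highest mean and with the largest SD. Pira2 and Cd300ld were named after their values were seen, as part of a count of 4. So were Bcl2l2, Bcl2a1c, Cdkn1a, Mdm2 and the list genes named as below the limit.

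Fits used limma (lmFit and eBayes). Alternatives were the mean over probesets, probesets above the 25th percentile, keeping dim genes, a filter at the 60th percentile, arrays centred or quantile normalized, z-scored lists, Spearman's rho, both dim arrays or any single tumour left out, and the 20 nearest genes. On simulated data with Bak1 as covariate, over 9765 genes, limma recovered 89% of 100 genes with a slope of 1.5 residual SDs and 100% of 100 with 3, with 8 other calls. The own-chromosome step, over 1000 genes, passed 98% of planted genes and 6.11% of others at p under 0.05. Tools were limma 3.58.1 in R 4.3.3, and pandas 2.3.3, numpy 2.4.6, scipy 1.17.1 and matplotlib 3.10.9 in Python 3.11.15.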

Additional observations from a re-analysis of the deposited data

How the results depend on the processing

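No paired analysis was possible because all 15 tumours form 1 group. The Bak1 and Mcl1 gene counts and the Bid, Bcl2 and Bbc3 chromosome relations depended on single tumours or on scaling. The count of 0 called pairs held under every limma alternative, and 2 pairs passed by Spearman's rho without adjustment. Levels moved by more than 1 SD with the mean over probesets for Bcl2 (8.18), Mcl1 (9.03) and Bad (7.85), and with probesets above the 25th percentile for Bcl2l1 (7.66) and Bbc3 (7.69). Genes called with Mcl1 numbered 1 with the mean over probesets, 11 with the 60th percentile filter, 8 after centring, 17 after quantile normalization and 39 without the 2 dim arrays. Leaving out single tumours gave between 0 and 27. With Bak1 these counts were 11, 33, 471, 808 and 2, with 12 when dim genes were kept, and between 0 and 213 with single tumours left out. Genes called with the mean over probesets numbered 367 for Bid and 20 for Bad, and those with probesets above the 25th percentile 322 for Bbc3. Leaving out single tumours gave between 0 and 23 for Bid and between 0 and 19 for Bad. The Myc score called 1 member with the mean over probesets (Bid) and 1 with the 60th percentile filter, centring, quantile normalization or z-scored genes (Bak1 each time). Leaving out single tumours gave 0 to 1, likewise 0 to 1 for the G2 and mitosis score. The own-chromosome r of Bcl2 was 0.55 with the mean over probesets and 0.34 to 0.64 with single tumours left out. For Bid r was 0.56 after centring, 0.54 after quantile normalization, 0.81 without tumor_9509 and tumor_9514, and 0.24 to 0.70 with single tumours left out. For Bbc3 r was 0.65 with probesets above the 25th percentile, 0.56 after centring, 0.63 after quantile normalization and 0.16 to 0.56 with single tumours left out. For Pmaip1 it turned to -0.042 with the mean over probesets and -0.018 after quantile normalization. For Bcl2l1 single tumours left out gave -0.059 to 0.33, below 0 without tumor_9492 (-0.059) or tumor_36 (-0.022). For Bad it was 0.13 with the 20 nearest genes. The causes were not tested. The 3 pair relations and 7 score relations with a permutation p under 0.05 were recomputed under the same alternatives. Of these 10, 0 changed direction, and the unadjusted p rose above 0.05 in 31 alternative values and not in 196; the largest drop was Mcl1 with Bcl2l11, at r = 0.19 with the mean over probesets. Among the r values with a higher p, that of Pmaip1 with p53 targets ran from -0.23 to 0.070 with single tumours left out.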
